A study of Mus musculus with 6 samples.

Results

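The genes described here belong to the fibroblast growth factor (FGF) pathway: the ligands *Fgf2*, *Fgf7*, *Fgf10* and *Fgf18*, the receptors *Fgfr1*, *Fgfr2* and *Fgfr3*, and the feedback inhibitors *Spry1*, *Spry2* and *Spry4*. They were taken from the deposited RNA-seq table by gene symbol and make up 10 of its 25140 genes. The libraries were made from primary cardiac fibroblasts of adult C57BL/6 mouse hearts at passage 1. By the labels, the cells were grown in DMEM with 25 mM glucose and 10% FBS and then held in 1% FBS for 16 h. The study's methods instead give 24 h in 1% FBS before treatment, and the same level during it, for all its experiments. In the vehicle group (n = 3) the cells received no TGFβ, and in the TGFβ group (n = 3) they received 10 ng/mL TGFβ, a cytokine that induces the contractile myofibroblast state, for 24 h. No genetic change is labelled in either group, and the study's text also uses the name mouse embryonic fibroblasts for cells in this experiment. The study's methods call the samples biological replicates, but the labels do not say whether they came from separate mice or cultures, so the p-values measure the spread between these libraries.

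FGFs are secreted proteins that bind heparan sulfate at the cell surface and bring pairs of FGF receptors, which are tyrosine kinases, together. The active receptor recruits the docking protein Frs2 and switches on the RAS-RAF-MEK-ERK kinase cascade, whose transcriptional targets include genes that shut the cascade down again, among them the Sproutys and the ERK phosphatase Dusp6. In the heart, fibroblasts are a source of FGF ligands and also respond to them by dividing, and FGF and TGFβ are commonly described as having opposing effects on the myofibroblast state.

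The libraries held 27851677 to 31072338 counts, and the values below are given in the order of the table's columns, vehicle first. Expression is given in CPM, the count of a gene per 1000000 counts of its library, after scaling with TMM factors. Fold changes are TGFβ over vehicle from edgeR's quasi-likelihood test, and a gene was called at a Benjamini-Hochberg adjusted p under 0.05 over 14334 tested genes. As a check of the treatment, *Acta2*, smooth muscle actin, rose by 1.03 and *Postn*, periostin, by 1.55 on the log2 scale (edgeR, adjusted p = 6.93e-05 and 6.49e-05), and all 5 myofibroblast markers in the table were higher. Fibroblast genes were abundant, with *Col1a1* at 19992 ± 1515 CPM (SD, n = 3) in vehicle, and 7 of 9 fibroblast markers were lower with TGFβ. None of the 7 endothelial, 5 leukocyte or 2 cardiomyocyte markers tested was called, nor were the 6 epithelial and mesothelial ones, and of the 6 smooth muscle and pericyte markers *Notch3* alone was called (lower). Markers of other cells were nevertheless present. Their sums ran from 397.2 to 669.1 CPM for endothelial, 206.9 to 339.9 CPM for leukocyte and 185.4 to 394.2 CPM for smooth muscle and pericyte genes. They ran from 27.11 to 59.11 CPM for cardiomyocyte and from 16.08 to 71.40 CPM for epithelial and mesothelial genes. Single genes made up much of some sums. In the vehicle library of 31072338 counts *Tnnt2* held 58.26 of 59.11 CPM for cardiomyocyte genes. There *Lyz2* held 201.2 of 237.9 CPM for leukocyte and *Notch3* 191.0 of 311.8 CPM for smooth muscle and pericyte genes. *Myh6*, *Actn2*, *Myl2* and *Ryr2* had too few counts to be tested. The mesothelial sum was highest in its group in the vehicle library of 31072338 counts and the TGFβ library of 27851677 counts, and the endothelial sum in the vehicle library of 29331999 counts and the TGFβ library of 28641986 counts.

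All 10 genes passed the filter on low counts. *Fgf2* was higher with TGFβ, and *Fgf7*, *Fgf10*, *Fgfr2*, *Spry2* and *Spry4* were lower, with log2 fold changes from -1.49 to -0.63. *Fgf18*, *Fgfr1*, *Fgfr3* and *Spry1* did not pass the test. Over all genes tested, 40.7% were called, 20.5% higher and 20.1% lower. Of the 10 genes 6 were called, 1 higher and 5 lower, but *Fgf10* passed the filter only through the vehicle libraries, where it is high, and so had to differ. Of the other 9 genes 5 were called, 1 higher and 4 lower. In 7 of the 10 genes the CPM values of the groups did not overlap, as they did not in 53.3% of all genes tested. The median log2 fold change of the 10 genes was -0.43, against -0.001 over all genes tested. Both this median and the 7 genes without overlap include *Fgf10*. With the other 9 genes ranked by log2 fold change, the middle one was *Fgfr3*, at -0.24. In these bulk libraries, fewer cells that express a gene and less RNA of it per cell cannot be told apart.

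**Figure D1:**
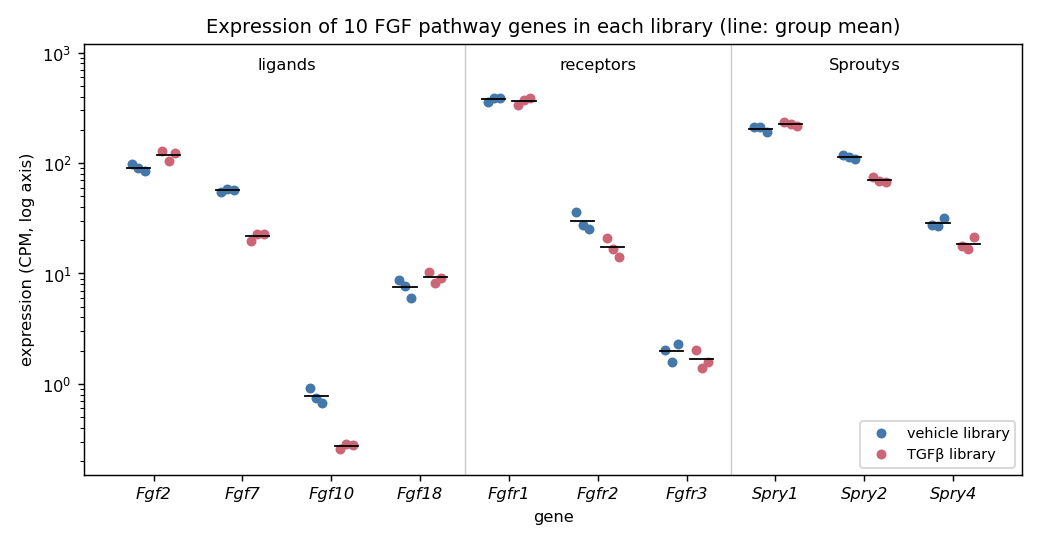
Expression of the 10 FGF pathway genes in each library, in CPM on a log axis, with points for the 3 vehicle (blue) and 3 TGFβ (red) libraries and a line at each group mean. The levels run from 0.256 CPM for *Fgf10* to 391.4 CPM for *Fgfr1*, and the groups stand farthest apart for *Fgf7* and *Fgf10*.

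**Figure D2:**
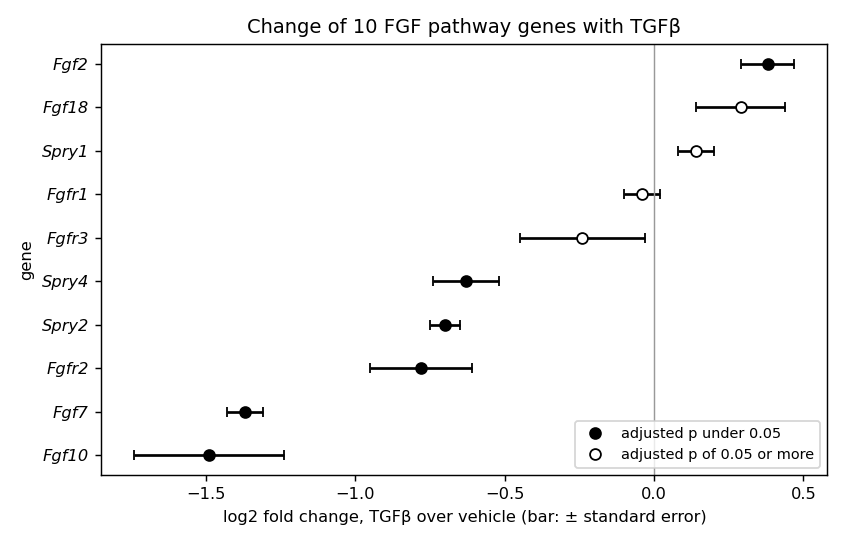
Log2 fold change of each of the 10 genes, TGFβ over vehicle, with bars of 1 standard error. Filled points passed an adjusted p under 0.05 and open points did not. *Fgf2* is the filled point above 0 (0.38), and *Fgf10* lies lowest, at -1.49.

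Of the 4 ligands, 2 fell, 1 rose and 1 was not called. *Fgf7* (ENSMUSG00000027208; GRCm38 chromosome 2, 126034658 to 126091185, plus strand), also called keratinocyte growth factor, is made by mesenchymal cells and acts on the epithelial splice form of Fgfr2. *Fgf7* stood at 54.7, 58.8 and 56.5 CPM in the vehicle libraries and at 19.9, 22.7 and 23.0 CPM in the TGFβ libraries. Every TGFβ library was below every vehicle library, by a wide margin. The mean went from 56.7 ± 2.05 to 21.9 ± 1.72 CPM (SD, n = 3 each), a level 2.59-fold lower (log2 fold change -1.37, SE 0.06, edgeR adjusted p = 8.51e-06).

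*Fgf10* (ENSMUSG00000021732; chromosome 13, 118669791 to 118792115, plus strand), the ligand closest to *Fgf7* in receptor choice and a regulator of lung and limb outgrowth, was close to the limit of detection. Its counts were 29, 22 and 20 in vehicle and 7, 8 and 8 with TGFβ. The vehicle libraries were all above the TGFβ libraries, and it was through the vehicle libraries that *Fgf10* passed the filter on low counts, so a difference was built into its being tested. At 0.775 ± 0.124 and 0.274 ± 0.0162 CPM it was 2.80-fold lower with TGFβ (log2 fold change -1.49, SE 0.25, edgeR adjusted p = 0.00269). Counting error is a large part of the spread at this depth.

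*Fgf2* (ENSMUSG00000037225; chromosome 3, 37348346 to 37410108, plus strand), or basic FGF, a broadly expressed fibroblast mitogen exported without a signal peptide, moved the other way. It measured 97.8, 90.3 and 84.2 CPM in vehicle and 128.4, 103.8 and 122.6 CPM with TGFβ. The groups did not overlap, but the lowest TGFβ library lay close to the highest vehicle library. The rise, from 90.8 ± 6.80 to 118 ± 12.9 CPM, was 1.30-fold (log2 fold change 0.38, SE 0.09, edgeR adjusted p = 0.0103). The log2 fold change was 0.30 (SE 0.10, edgeR adjusted p = 0.0540) when both libraries highest in endothelial markers were left out. The call was lost in this setting, which also has fewer libraries. Leaving out any single library kept the call, with an edgeR adjusted p of at most 0.0409. The vehicle library highest in endothelial markers had the lowest *Fgf2* value of its group. In each group the highest *Fgf2* value came from the library highest in epithelial and mesothelial markers. Without both of those libraries the log2 fold change was 0.38 (SE 0.09, edgeR adjusted p = 0.0391). The part of endothelial or mesothelial cells in the *Fgf2* result was not tested. *Nudt6* lies on the opposite strand and shares 640 exon bases with *Fgf2*, but had 475 counts in all, or 2.61% of those of *Fgf2*. Its counts were 95, 82 and 84 in vehicle and 69, 72 and 73 with TGFβ.

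*Fgf18* (ENSMUSG00000057967; chromosome 11, 33117430 to 33147400, minus strand), known for its part in bone and cartilage growth, had 8.80, 7.76 and 6.00 CPM in vehicle and 10.3, 8.17 and 9.19 CPM with TGFβ. The groups overlapped, with vehicle libraries on both sides of the lowest TGFβ library. The log2 fold change was 0.29 (SE 0.15, edgeR adjusted p = 0.160), and the exact permutation test of the CPM gave p = 0.2.

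The sequences just before the transcription starts are shown for the 3 ligands whose windows could be printed, *Fgf7*, *Fgf10* and *Fgf18*. Each has 250 bases, 5′ to 3′ on the gene's own strand, from RefSeq (build GRCm38.p6): chr2:126034408-126034657 (plus) for *Fgf7*, chr13:118714449-118714698 (plus) for *Fgf10* and chr11:33147401-33147650 (minus) for *Fgf18*. The start behind the *Fgf10* window is annotated but lies inside the gene's span, which begins at 118669791, so other annotated starts are not covered. Capitals mark matches, on either strand, to the SMAD box CAGAC, the short sequence bound by the SMAD proteins that carry the TGFβ signal.
Fgf7: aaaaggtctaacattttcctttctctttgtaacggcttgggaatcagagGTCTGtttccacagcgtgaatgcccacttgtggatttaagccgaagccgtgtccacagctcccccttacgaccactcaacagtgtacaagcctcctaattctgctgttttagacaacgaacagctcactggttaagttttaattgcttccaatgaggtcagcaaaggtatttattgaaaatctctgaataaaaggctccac
Fgf10: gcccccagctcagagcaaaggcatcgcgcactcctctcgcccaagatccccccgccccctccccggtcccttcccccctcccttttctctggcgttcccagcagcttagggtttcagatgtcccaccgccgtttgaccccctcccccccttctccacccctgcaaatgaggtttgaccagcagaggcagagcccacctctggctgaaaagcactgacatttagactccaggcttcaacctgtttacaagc
Fgf18: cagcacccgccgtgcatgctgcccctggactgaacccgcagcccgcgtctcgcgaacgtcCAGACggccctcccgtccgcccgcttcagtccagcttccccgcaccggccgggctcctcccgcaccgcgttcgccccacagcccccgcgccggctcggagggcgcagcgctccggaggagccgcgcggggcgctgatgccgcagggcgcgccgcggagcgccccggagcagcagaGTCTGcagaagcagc
The window of *Fgf7* held 1 match, that of *Fgf18* 2 and that of *Fgf10* none, and the window of *Fgf2*, which is not shown, held 1. A motif this short was found in 42.2% of 32851 RefSeq promoter windows of the same length. The AP-1 motif TGANTCA (6.75% of all windows) and the ETS core with its flank CCGGAA (12.0%), searched on both strands, were in none of the 3. The windows differed in base composition, at 43.6% GC for *Fgf7*, 61.2% for *Fgf10* and 77.2% for *Fgf18*, with a median of 52.4% over all windows.

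Levels of different genes were compared as CPM per kilobase of exon. On this scale *Fgf7* led the ligands in vehicle, at 17.4 CPM per kilobase, followed by *Fgf2* at 13.4, *Fgf18* at 6.33 and *Fgf10* at 0.168. With TGFβ the order of the first pair was turned, with *Fgf2* at 17.4, *Fgf18* at 7.78, *Fgf7* at 6.73 and *Fgf10* at 0.0596 CPM per kilobase. As a share of the summed level per kilobase of the 4 ligands, *Fgf7* went from 46.8% ± 3.23 to 21.2% ± 2.93 and *Fgf2* from 35.8% ± 1.13 to 54.4% ± 1.87 (SD, n = 3). The *Fgf7* to *Fgf2* ratio of CPM within each library, on the log2 scale, was -0.84, -0.62 and -0.58 in vehicle and -2.69, -2.19 and -2.42 with TGFβ. The difference of means was -1.75, and no library of one group lay among those of the other. The exact permutation test (two-sided) gave p = 0.1, the smallest that 3 against 3 libraries allow. That value was the same for each of the 4 pairs of genes compared in this way, also after adjustment over the 4.

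**Figure D3:**
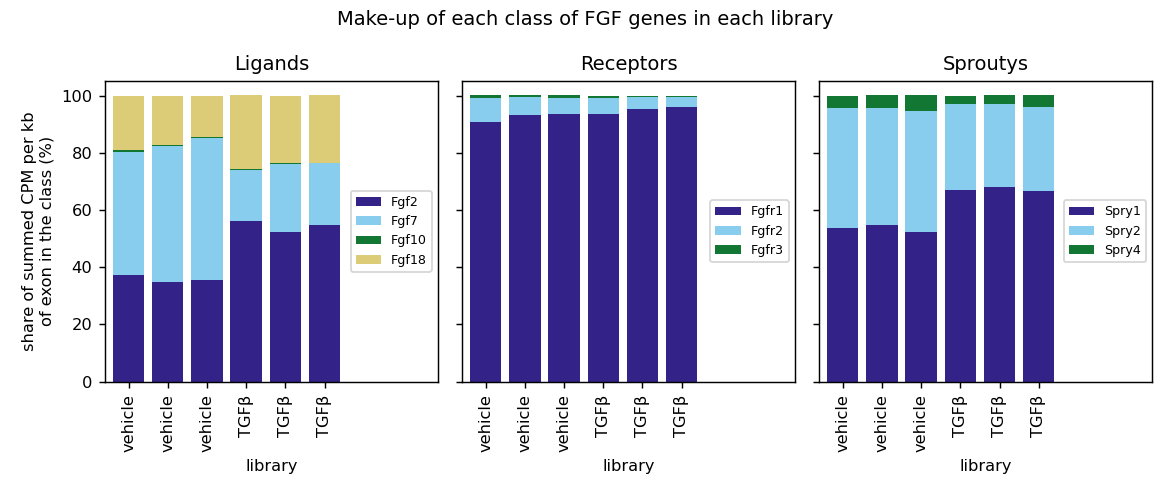
Make-up of the ligands, receptors and Sproutys in each library, as the percent each gene takes of the summed CPM per kilobase of exon of its class. *Fgf7* takes 46.8% of the ligands with vehicle and 21.2% with TGFβ on average, *Fgfr1* takes over 90% of the receptors in all 6 libraries, and *Spry1* takes 53.6% of the Sproutys with vehicle and 67.3% with TGFβ.

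Of the 3 receptors, 1 fell and the other two were not called. *Fgfr1* (ENSMUSG00000031565; chromosome 8, 25513654 to 25575718, plus strand), is the main FGF receptor of mesenchymal cells. It measured 358.0, 389.7 and 385.7 CPM in vehicle and 337.0, 373.4 and 391.4 CPM with TGFβ. The groups overlapped over most of their range. The log2 fold change was -0.04 (SE 0.06, edgeR adjusted p = 0.654, exact permutation p = 0.7), and it ran from -0.10 to 0.02 when single libraries were left out.

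*Fgfr2* (ENSMUSG00000030849; chromosome 7, minus strand), whose epithelial splice form is the receptor of Fgf7 and Fgf10, was lower with TGFβ. It had 36.1, 27.7 and 25.4 CPM in vehicle and 21.1, 16.7 and 14.1 CPM with TGFβ. The groups did not overlap, although both were broad. Its mean went from 29.7 ± 5.65 to 17.3 ± 3.54 CPM, 1.72-fold lower (log2 fold change -0.78, SE 0.17, edgeR adjusted p = 0.00863). The highest *Fgfr2* value of each group came from the library with the highest sum of epithelial and mesothelial markers. That sum was 71.4 CPM in vehicle against 23.8 and 30.3, and 43.5 CPM with TGFβ against 16.1 and 19.3. *Fgf2*, *Fgf18*, *Spry1* and *Spry2* also had their highest value of each group in these libraries. Without both libraries the log2 fold change of *Fgfr2* was also -0.78 (SE 0.10, edgeR adjusted p = 0.00708). Of the 9 markers in that list *Upk3b*, a uroplakin of mesothelium, had the highest CPM. It stood at 32.4 ± 18.2 CPM in vehicle and 16.3 ± 7.20 CPM with TGFβ (edgeR adjusted p = 0.0935). Without both libraries it was lower with TGFβ as *Fgfr2* was (-0.85, edgeR adjusted p = 0.00339). The libraries were picked by a sum that includes *Upk3b*, so its call in this setting is not a test of mesothelial content. The part of mesothelial cells in the *Fgfr2* result was not tested. In the same list *Krt19*, *Msln* and *Wt1* had log2 fold changes of 0.01, 0.61 and 0.09, *Krt18* one of 0.69 and *Upk1b*, another uroplakin, one of -0.29, and none of these was called, while *Epcam*, *Cdh1* and *Krt8* had too few counts to be tested. The table counts whole genes, so the splice forms of *Fgfr2* could not be separated. The annotated span of *Fgfr2* includes read-through transcripts that run over neighbouring genes, and 314 of its exon bases are shared with *Ctbp2* on the same strand, so that some reads of either gene may have been counted for the other. *Ctbp2* had 1629, 1529 and 1468 counts in vehicle and 1458, 1486 and 1409 with TGFβ.

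*Fgfr3* (ENSMUSG00000054252; chromosome 5, 33721674 to 33737068, plus strand), a brake on bone growth in cartilage, had few reads, 39 to 68 counts per library. Its values were 2.04, 1.58 and 2.28 CPM in vehicle and 2.05, 1.40 and 1.58 CPM with TGFβ. They overlapped, and the log2 fold change was -0.24 (SE 0.21, edgeR adjusted p = 0.410, exact permutation p = 0.3). Per kilobase of exon, *Fgfr1* stood at 38.3 CPM in vehicle and 37.2 with TGFβ, *Fgfr2* at 2.88 and 1.68, and *Fgfr3* at 0.275 and 0.234. On this scale 91.6% of the tested genes had a lower level than *Fgfr1*, 36.8% a lower one than *Fgfr2* and 8.11% a lower one than *Fgfr3*. *Fgfr1* thus took 92.4% ± 1.57 of the summed level per kilobase of the 3 receptors in vehicle and 95.1% ± 1.31 with TGFβ. With the longest transcript as length this share was 91.2% and 94.4%. The exon union of *Fgfr1* is 9875 bases and that of *Fgfr2* 10328, against longest transcripts of 5041 and 4429 bases. Levels per kilobase and ranks depend on this choice, and the ranks were computed with the union only. The log2 ratio of *Fgfr2* to *Fgfr1* within a library was -3.31, -3.82 and -3.93 in vehicle and -4.00, -4.48 and -4.79 with TGFβ, a difference of means of -0.74 (exact permutation p = 0.1). The lowest vehicle ratio and the highest TGFβ ratio were close to each other.

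Of the 3 Sproutys, which block the path from receptor to ERK, 2 fell and 1 was not called. *Spry2* (ENSMUSG00000022114; chromosome 14, 105891947 to 105896819, minus strand) had 119.3, 114.3 and 109.8 CPM in vehicle and 74.97, 69.33 and 67.28 CPM with TGFβ. The libraries were tightly grouped and well apart. The mean went from 114 ± 4.77 to 70.5 ± 3.98 CPM, 1.62-fold lower (log2 fold change -0.70, SE 0.05, edgeR adjusted p = 6.58e-05).

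*Spry1* (ENSMUSG00000037211; chromosome 3, 37639947 to 37644598, plus strand) had 212.5, 211.3 and 189.5 CPM in vehicle and 233.7, 226.7 and 214.6 CPM with TGFβ. The groups did not overlap, with a narrow gap between 212.5 and 214.6 CPM. The means were 204 ± 12.9 and 225 ± 9.65 CPM (log2 fold change 0.14, SE 0.06), and the difference did not pass the test (edgeR adjusted p = 0.0944, exact permutation p = 0.1). The adjusted p ran from 0.0679 to 0.240 over the 14 alternative settings. *Gm42922*, on the opposite strand, shares 710 exon bases with *Spry1* and had 0.618% of its counts.

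The log2 ratio of *Spry2* to *Spry1* within a library was -0.83, -0.89 and -0.79 in vehicle and -1.64, -1.71 and -1.67 with TGFβ. The spread within a group (SD 0.05 and 0.03) was small beside the difference of -0.84 (exact permutation p = 0.1). Per kilobase of exon, *Spry1* stood at 70.3 CPM in vehicle and 77.4 with TGFβ, and *Spry2* at 54.8 and 33.8. Both lay high among expressed genes: 96.0% of the tested genes had a lower level per kilobase than *Spry1* and 92.9% a lower one than *Spry2*.

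The promoters of *Spry1* and *Spry2* are shown because the genes differed in this way while both sequences have the same GC content, 62.4%. The windows are chr3:37639697-37639946 (plus) and chr14:105896820-105897069 (minus), from RefSeq on GRCm38.p6, 250 bases each, 5′ to 3′ on the gene's strand. Matches to the SMAD box, AP-1 or ETS motifs would be in capitals, and there were none in either window.
Spry1: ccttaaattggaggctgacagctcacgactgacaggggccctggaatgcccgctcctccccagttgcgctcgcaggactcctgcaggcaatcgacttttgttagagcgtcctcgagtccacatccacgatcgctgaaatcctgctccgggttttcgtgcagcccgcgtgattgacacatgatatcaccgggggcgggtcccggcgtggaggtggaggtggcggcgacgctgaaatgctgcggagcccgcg
Spry2: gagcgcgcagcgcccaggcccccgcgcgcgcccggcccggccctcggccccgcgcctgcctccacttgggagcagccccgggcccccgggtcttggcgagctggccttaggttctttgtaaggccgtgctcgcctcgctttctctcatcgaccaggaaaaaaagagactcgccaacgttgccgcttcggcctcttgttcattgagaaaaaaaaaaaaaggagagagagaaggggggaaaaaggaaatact
The absence of a match says only that these letters do not occur in these windows.

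RefSeq promoter entries were matched for 8 of the 10 genes, all but *Fgfr1* and *Spry4*. Those of *Fgf2*, *Fgfr2* and *Fgfr3* are not shown. The window of *Fgf2* lies within annotated exons, and the RefSeq start of *Fgfr2* is 545 bases from the nearest start of its gene model. The *Fgfr3* window that begins at 33721474 overlaps annotated exons by 50 bases. Another *Fgfr3* window, beginning at 33722056, overlaps none and was left out too.

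*Spry4* (ENSMUSG00000024427; chromosome 18, 38586247 to 38601415, minus strand) stood at 27.3, 26.8 and 31.7 CPM in vehicle and at 17.6, 16.6 and 21.3 CPM with TGFβ. Every TGFβ library was below every vehicle library. The mean went from 28.6 ± 2.69 to 18.5 ± 2.45 CPM, 1.55-fold lower (log2 fold change -0.63, SE 0.11, edgeR adjusted p = 0.00253). The highest *Spry4* value of each group came from the library with the highest endothelial sum, 669 CPM in vehicle and 544 CPM with TGFβ. Without both of these libraries the log2 fold change was -0.66 (SE 0.06, adjusted p = 0.000478). In that setting 3 of the 7 endothelial markers were lower with TGFβ, *Pecam1* (-0.30), *Cdh5* (-0.35) and *Egfl7* (-0.28). The libraries were picked by the sum of these same markers, so the marker calls are not a test of endothelial content. In all 6 libraries none of the 7 was called, and the part of endothelial cells in the *Spry4* result was not tested. Within libraries the log2 ratio of *Spry4* to *Spry1* was -2.96, -2.98 and -2.58 in vehicle and -3.73, -3.77 and -3.34 with TGFβ, a difference of -0.77 (exact permutation p = 0.1). On the scale of CPM per kilobase, *Spry4* was the least abundant of the 3 Sproutys, at 6.01 in vehicle and 3.89 with TGFβ.

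The other FGF genes changed in both directions. Of the ligands outside the 10 genes, 9 of 14 were in the table and 5 could be tested. Of those, 2 rose and 1 fell, with a median log2 fold change of 0.44. For this and the lists that follow, the shares over all genes tested are 20.5% higher and 20.1% lower and the median is -0.001. *Fgf21*, a hormone-like FGF known from liver and from stress responses, had 4, 9 and 11 counts in vehicle and 118, 109 and 203 with TGFβ. It was low in vehicle and passed the filter through the TGFβ libraries, so a difference was built into its being tested. It went from 0.266 ± 0.126 to 5.11 ± 1.75 CPM (log2 fold change 4.26, SE 0.38, edgeR adjusted p = 0.000133). The 2 ligands that rose and the median of 0.44 include *Fgf21*. *Fgf9*, an epithelial and mesothelial ligand in development, rose from 7.20 ± 0.673 to 12.3 ± 1.47 CPM (0.77, adjusted p = 0.00140). *Fgf1*, acidic FGF, fell from 1.59 ± 0.262 to 0.917 ± 0.132 CPM (-0.79, adjusted p = 0.0174), a call lost in 4 of the 14 alternative settings. Both homologous factors that could be tested, *Fgf11* (-0.61, adjusted p = 0.00873) and *Fgf13* (-0.66, adjusted p = 0.0118), fell, and these proteins stay inside the cell and do not signal through FGF receptors in the usual way. The call of *Fgf13* was lost in 2 settings and that of *Fgf11* in 1. *Fgfrl1*, a receptor-like protein without a kinase, rose from 67.0 ± 12.5 to 106 ± 14.1 CPM (0.67, adjusted p = 0.00805). *Fgfr4* had 13, 14 and 2 counts in vehicle and 4, 0 and 2 with TGFβ, too few to be tested.

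Between the receptor and ERK, 3 of 12 adaptors and proximal enzymes rose and 3 fell, with a median log2 fold change of 0.04, so that the list lay near the shares of all genes. *Gab1*, a docking protein, fell the most in this list, from 78.9 ± 9.71 to 47.6 ± 5.40 CPM (-0.73, edgeR adjusted p = 0.00146), and *Shc1*, an adaptor, fell by 0.26 (adjusted p = 0.00152). *Cbl*, a ubiquitin ligase that targets receptors for degradation, rose by 0.21 (adjusted p = 0.0147), and *Ptpn11*, the phosphatase SHP2, by 0.14 (adjusted p = 0.0294). The calls of *Cbl* and *Ptpn11* were lost in 3 and 6 of the 14 alternative settings, and the number of this list called higher ran from 0 to 3. Of the 10 genes of the RAS-RAF-MEK-ERK core, 7 rose and 1 fell, with a median of 0.24 against -0.001 over all genes. *Map2k1*, the kinase MEK1, had the largest change of the list, from 130 ± 3.46 to 189 ± 8.28 CPM (0.54, adjusted p = 0.000105), followed by *Braf* (0.34, adjusted p = 0.00612) and *Hras* (0.32, adjusted p = 0.00791). The genes named here are all among those that rose. The number of the core genes called higher ran from 5 to 7 over the settings, and the number called lower from 0 to 1.

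Of the genes listed as feedback inhibitors none was called higher with all libraries, and in the alternative settings *Flrt2* alone was. *Flrt2* and *Flrt3* are transmembrane modulators of the receptors rather than inhibitors, and the counts and median of the list include them. *Flrt2* was called when the vehicle library of 31072338 counts was left out (0.76, edgeR adjusted p = 0.00701, against 0.36 and 0.316 with all libraries). The same held when both libraries highest in mesothelial markers were left out (0.63, edgeR adjusted p = 0.0163). Beside the Sproutys, 9 could be tested, of which 2 fell and 7 were not called, with a median of -0.13. With the Sproutys included, 3 to 5 of this list were called lower over the settings. *Dusp6*, the ERK phosphatase, fell from 30.5 ± 4.13 to 18.3 ± 4.19 CPM (-0.74, SE 0.17, edgeR adjusted p = 0.0102), and *Spred1*, a Sprouty-related inhibitor, from 126 ± 3.36 to 112 ± 4.03 CPM (-0.17, adjusted p = 0.0169), a call lost in 5 of the 14 settings. Of 12 genes listed as transcriptional targets of FGF and ERK, 6 fell and 1 rose, with a median of -0.49, and *Dusp6* stands in this list too. Over the alternative settings 6 to 7 were called lower and 0 to 4 higher, with the 4 on leaving out the TGFβ library of 28894151 counts. The 3 largest changes were those of *Fos* (-1.60, adjusted p = 0.000166), *Ccnd1* (-1.19, adjusted p = 0.000118) and *Ier2* (-1.14, adjusted p = 6.01e-05). *Fos* and *Ier2* are immediate early genes and *Ccnd1* encodes cyclin D1. *Egr1*, another immediate early gene with the highest CPM of the list, went from 339 ± 32.6 to 172 ± 26.4 CPM (-0.98, adjusted p = 0.000468). These genes answer to many signals besides FGF. The ETS factors *Etv1*, *Etv4* and *Etv5*, which are also in this list, were not called, at -0.24, 0.60 and -0.25 (edgeR adjusted p = 0.0794, 0.0591 and 0.220). *Etv4* was called higher in 5 of the 14 alternative settings, DESeq2 among them (adjusted p = 0.0247), and *Etv5* lower in 2.

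Heparan sulfate, the polysaccharide that FGFs need to bind their receptors, is built and edited by enzymes of which 13 were tested. Of these 5 rose and 2 fell, with a median of -0.04. The number called lower ran from 0 to 3 over the settings, and the number called higher from 5 to 6. It was 0 for the lower calls without the TGFβ library of 27851677 or that of 28894151 counts. The same held without both libraries highest in mesothelial markers. *Ext1*, a polymerase of the chain, rose from 242 ± 4.14 to 443 ± 9.63 CPM (0.87, SE 0.04, edgeR adjusted p = 8.51e-06). *Hs2st1*, a 2-O-sulfotransferase, rose from 77.5 ± 3.24 to 129 ± 5.15 CPM (0.73, adjusted p = 3.49e-05). *Sulf1*, which removes 6-O-sulfates from the finished chain, had the highest CPM of the list, at 544 ± 14.1 CPM in vehicle and 818 ± 33.6 with TGFβ (0.59, adjusted p = 9.46e-05). *Hpse*, heparanase, which cuts the chain, fell from 7.51 ± 2.03 to 4.61 ± 0.918 CPM (-0.70, adjusted p = 0.0339), a call lost in 5 of the 14 settings.

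**Figure D4:**
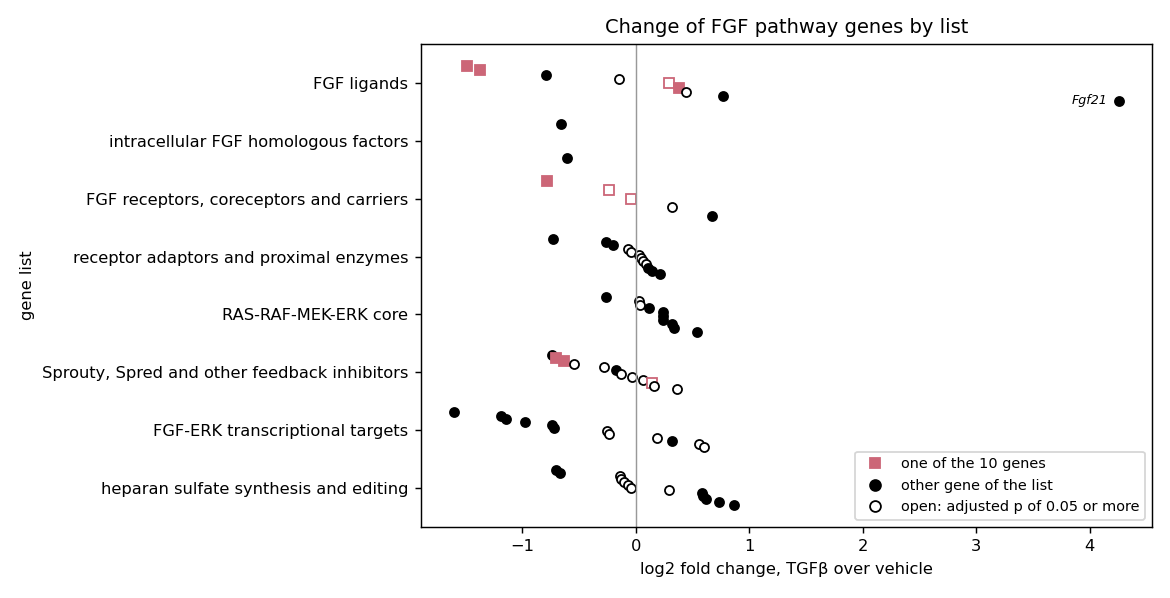
Log2 fold change, TGFβ over vehicle, of every tested gene of 8 FGF pathway lists, one row of points per list. Squares are the 10 genes and circles the others, and open symbols did not pass an adjusted p under 0.05. *Fgf21* lies alone at 4.26, and no filled symbol in the list of feedback inhibitors, which includes *Flrt2* and *Flrt3*, lies above 0.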

How the data were processed

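RNA-seq was analysed in 3 vehicle and 3 TGFβ libraries of mouse cardiac fibroblasts. ATAC-seq of the same cells was not analysed here. Per the study's methods, poly(A) RNA was made into stranded libraries and sequenced from a single end (75 bases), with alignment to mm10 and analysis in DESeq2. The aligner, counting tool, annotation and use of strand are not given in the sources used here. The deposited table gives raw counts, as whole numbers, for each gene in each library. It also holds the authors' mean of normalized counts and their fold changes, standard errors, statistics and p-values, and none of these was used.

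Columns were assigned to groups by their names, which carry no replicate number. Within a group, counts differed more than sampling noise allows. Low counts were filtered with filterByExpr by group, which kept 14334 of 25140 genes. TMM scaling and the quasi-likelihood test, with Benjamini-Hochberg adjustment, were run in edgeR 4.0.16 (R 4.3.3). No covariate was fitted. Standard errors are the fold change over the square root of F. The biological coefficient of variation was 7.97%. CPM values were also compared by two-sided exact permutation tests, whose smallest p is 0.1. The test was checked on simulated counts. With 27851677 to 31072338 counts per library, counting error is sizeable for genes with few counts, such as *Fgf10*, *Fgfr3*, *Fgf1*, *Fgf13*, *Fgf21*, *Fgfr4*, *Krt19* and *Msln*.

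Gene models are those of GENCODE M21 on GRCm38, matched by identifier for 25086 genes. Exon length is the union of a gene's exons. No more than 3.07% of the 75-base windows of any of the 10 genes occurred in another gene's transcripts. Promoter sequences are from RefSeq (GRCm38.p6).

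The 10 genes, the pathway and marker lists and the tests were chosen with earlier results of these data known. From each list the text names up to 3 called genes with the largest change and a mean of at least 1 CPM, plus the gene with the highest mean. One gene that this rule takes in is not reported here. *Fgfr4*, *Flrt2*, the Etv genes and some cell type markers were added after their values were seen. The alternatives were DESeq2 size factors, upper quartile scaling, DESeq2 1.42.0, limma-voom (limma 3.58.1), no filter, at least 1 CPM in 3 libraries, omission of each library, a stricter adjusted p (0.01), a minimum log2 change of 1, and the longest transcript as gene length. Leaving out the 2 libraries highest in mesothelial or in endothelial markers was chosen after the data were seen.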

Additional observations from a re-analysis of the deposited data

How the results depend on the processing

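The calls of *Fgf7*, *Fgfr2*, *Spry2* and *Spry4* and their direction held under all 14 alternatives that refit the model. *Fgf10* was called in the 13 in which it could be tested (the filter of 1 CPM leaves it out). It passed the low-count filter through the vehicle libraries, so outside the setting with no filter a difference was built into its being tested. *Fgf2* kept its call in 13 of 14, but missed the stricter adjusted p of 0.01 (0.0103). At 0.01, 5 of the 10 genes were called, *Fgf10* among them, and 3595 of the 14334 genes tested. Without the 2 libraries highest in endothelial markers, a choice made after seeing the data, the log2 fold change of *Fgf2* was 0.30. Its edgeR adjusted p was then 0.0540, and the cause was not tested. *Fgf18*, *Fgfr1*, *Fgfr3* and *Spry1* were called in 0 of 14. Leaving out single libraries gave *Fgfr1* -0.10 to 0.02, with the change of sign (0.02) on leaving out the TGFβ library of 27851677 counts. The number of genes called was 5828, against 5038 with DESeq2, 4489 to 5481 without single libraries, 3595 at an adjusted p of 0.01, 971 with a log2 fold change beyond 1 and 3775 without the 2 libraries highest in mesothelial markers (chosen after seeing the data, with 4 libraries left). Of the 10 genes, 2 were called with a log2 fold change beyond 1, *Fgf7* and *Fgf10*, against 971 of the 14334 genes tested. The limit given above for *Fgf10* applies here too. With the longest transcript as length, the share of *Spry1* among the Sproutys was 54.7% in vehicle and 68.3% with TGFβ. No paired analysis was possible because the columns of the deposited table carry no replicate number. The mesothelial sums (71.4, 23.8 and 30.3 CPM in vehicle, 43.5, 16.1 and 19.3 CPM with TGFβ) and the endothelial sums (436, 494 and 669, and 397, 439 and 544 CPM) ran in the same order over the columns of both groups, but column order is not a label and was not used to pair them. With 3 libraries a group, the exact permutation test cannot pass 0.05. RNA levels say nothing of protein or receptor activity, and FGF response was not measured.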
